A study of Mus musculus with 36 samples.

Results

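The genes described here are 10 genes of the MHC class I presentation pathway, measured in mouse pancreatic fibroblasts that had been grown alone or together with tumour cells. They were chosen by symbol, with earlier results of these data known: H2-K1, H2-D1, H2-T23, B2m, Tap1, Tap2, Tapbp, Psmb8, Psmb9 and Nlrc5. All 10 were present in the deposited table of 39017 genes, and all 10 passed the filter on low counts that left 14439 genes for testing. RNA sequencing was performed on 36 libraries in 9 groups of 4. In the mono-culture group, fibroblasts of the C57BL/6 strain were cultured without tumour cells. In the other 8 groups the same fibroblasts had been co-cultured for 48 h with a tumour line carrying GFP and were then separated from it by flow sorting. The partner was sub-clone E, H, K, M, N, T or V, or a line labelled KPC1, which the labels do not explain further. Each of the 7 sub-clones is 1 clone, so a difference between co-cultures with different sub-clones is a difference between single clones. The labels do not state whether the 4 libraries of a group came from separate cultures, so p-values measure the spread between these libraries, which may be technical. The same 4 mono-culture libraries serve as the control in all 8 comparisons, which are therefore not independent of each other. In the library titles the serial numbers run through the co-cultures replicate by replicate, and the mono-culture libraries come after all of them. What this order stands for is not stated, and an effect of it on these comparisons was not tested.

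Class I molecules display short peptides from inside the cell to CD8 T cells and natural killer cells. Peptides are cut by the proteasome, in which the interferon-inducible subunits encoded by Psmb8 and Psmb9 can take the place of constitutive ones, and are carried into the endoplasmic reticulum by the transporter formed by Tap1 and Tap2. Tapbp encodes tapasin, which holds empty class I molecules at the transporter until they are loaded. The loaded molecule is a heavy chain, such as the classical H2-K1 and H2-D1 or the non-classical H2-T23 (Qa-1), paired with the light chain B2m. Nlrc5 is a transactivator that acts at class I promoters, and interferons raise most of these genes. Fibroblasts, like most nucleated cells, express class I without being professional antigen-presenting cells.

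Most members lie in the MHC region of chromosome 17, and stretches before their start sites are printed here because they show what the promoters of genes with different behaviour in co-culture have in common. Of the 10 genes, 8 had a promoter window in RefSeq (GRCm38.p6, 250 bases before to 50 after the start), and Tap2 and Nlrc5 had none. The windows of Tapbp, Psmb8 and Psmb9 are not printed. The lines run 5′ to 3′ on the strand of the gene. Capitals mark the letters searched for on either strand: GGGNNTTCC (the NF-kappaB type), GAANTGAAA or a pair of GAAA separated by 2 bases (both of the interferon-stimulated response element type), and TGACG followed after 20 bases by ATTGG, the arrangement of an X2 box and a Y box in class I promoters. In H2-T23 and Tap1, CCAAT and TGACG are also in capitals wherever they lie. These short words were found in 37.4% and 20.8% of the promoter windows of all genes.
H2-K1, chr17:34000349-34000468, minus strand: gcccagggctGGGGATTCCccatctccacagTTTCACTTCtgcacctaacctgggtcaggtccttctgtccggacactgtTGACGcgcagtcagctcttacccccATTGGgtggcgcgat
H2-D1, chr17:35262913-35263032, plus strand: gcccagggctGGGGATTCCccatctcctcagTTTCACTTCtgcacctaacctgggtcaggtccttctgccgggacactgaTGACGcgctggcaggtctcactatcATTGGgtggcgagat
B2m, chr2:122147538-122147648, plus strand: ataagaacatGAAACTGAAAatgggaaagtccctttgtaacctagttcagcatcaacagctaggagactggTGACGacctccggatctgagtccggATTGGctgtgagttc
H2-T23, chr17:36032739-36032835, minus strand: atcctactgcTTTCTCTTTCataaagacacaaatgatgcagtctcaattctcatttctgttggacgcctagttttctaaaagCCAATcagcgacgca
Tap1, chr17:34187324-34187484, plus strand: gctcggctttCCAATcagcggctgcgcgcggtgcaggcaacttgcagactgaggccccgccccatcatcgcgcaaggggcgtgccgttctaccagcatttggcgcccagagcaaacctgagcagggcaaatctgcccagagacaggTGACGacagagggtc

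The spaced arrangement of TGACG and ATTGG was found in H2-K1, H2-D1 and B2m, and in 0.0944% of the 32851 promoter windows of all genes. H2-K1 and H2-D1 were identical at 108 of the 120 bases printed (90%), including GGGNNTTCC and GAANTGAAA, which 5.82% and 1.83% of all windows held. H2-T23 and B2m held the GAAA pair, found in 3.44% of windows, and the H2-T23 window held neither GGGNNTTCC nor the spaced arrangement. TTCNNNGAA was also searched for, and of the members only Psmb8 held it, as did 8.30% of all windows. Tap1 and Psmb9 face away from each other, and their RefSeq starts are 226 bases apart. The stretch printed for Tap1 runs from position −232 to −72 from its start, so it covers part of the interval between the starts and reaches into the first bases of Psmb9, and it lies wholly within the longer GENCODE span of Psmb9. A match of letters is a description of the sequence and not a measured binding site.

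Library totals lay between 12532122 and 21985538 counts. Levels are given as CPM, counts relative to the TMM-scaled library total, unless RPKM, which also divides by gene length, is named. All 9 fibroblast markers examined, among them Col1a1, Pdgfra and Vim, were detected in every group, and their summed level was 10884 to 32040 CPM. The calls among them differed with the partner. Of the 9, 0 were lower with clones N, M, K and E, where 8.69% to 19.2% of all genes were lower. With H, T, V and KPC1 the counts were 5, 6, 5 and 6, where 24.7% to 28.9% of all genes were lower. Lum, which encodes the matrix proteoglycan lumican, averaged 6.35 CPM in mono-culture and fell to 1.11, 1.01, 1.06 and 0.324 CPM in these 4 co-cultures, while Pdgfrb rose in 7 co-cultures and Thy1 in 6. The 7 leukocyte and macrophage markers in the table summed to 1.44 to 16.3 CPM, and Cd3e was at 0 in all 9 groups. Of the 3 that were tested, Lyz2 averaged 3.32 CPM in mono-culture and fell in 7 co-cultures (all but clone K), to between 0.0379 and 0.795 CPM, and Cd68 averaged 3.37 CPM and rose with clones H, N and T and with KPC1, to between 8.92 and 12.99 CPM. The 8 epithelial markers, which stand for the tumour partner, summed to 0.989 to 1.71 CPM in mono-culture. In co-culture they summed to 18.3 to 302 CPM with clone K, 28.7 to 214 with V, 52.4 to 522 with M, 63.1 to 239 with H, 182 to 587 with KPC1, 259 to 494 with E, 286 to 797 with T and 434 to 671 with clone N. Krt8, Krt18 and Krt19 were higher in all 8 co-cultures, whereas Epcam was at 0 in the libraries with clones E, H, T and V and Cldn4 was at 0 in every group but clone T. The part of tumour-cell RNA, or of these marker changes, in each result was not tested, and a fit without the libraries highest in these markers is given after the counts of genes. In bulk libraries, fewer cells that express a gene and less RNA per cell cannot be told apart.

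Against mono-culture, most of the 10 genes were lower in fibroblasts co-cultured with clones K, M, E, T and N, and fewer were lower with H, V and KPC1. Of the 80 combinations of a gene and a co-culture, 52 were lower, 4 were higher and 24 did not pass the threshold (edgeR quasi-likelihood test, adjusted p under 0.05 over all genes tested). The 4 higher values were all of H2-T23. With clone E, 9 of the 10 genes fell and 0 rose, where 15.5% of all genes tested were lower and 16.5% higher. With clone K, 9 fell and 0 rose, against 8.69% lower and 10.4% higher among all genes. With clone M, 8 fell and 0 rose, against 10.8% and 12.2%. With clone N, 7 fell and 1 rose, against 19.2% and 19.7%. With clone T, 8 fell and 0 rose, against 24.7% and 25%. These 5 co-cultures had more members lower than the share of all genes would give. Because the members were chosen with earlier results of these data known, this is a description and no separate support.

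With clone H, 3 of the 10 genes fell and 1 rose, where 26.4% of all genes were lower and 27.8% higher, so that the share of members called was near the background. With clone V, 4 fell and 1 rose, against 28.9% and 29.4%. With KPC1, 4 fell and 1 rose, against 28.5% and 30.5%. The median log2 fold change of the 10 genes was −1.11 with clone K, −1.01 with M, −0.76 with T, −0.73 with E, −0.62 with N, −0.57 with V, −0.33 with KPC1 and −0.24 with clone H, while the median of all genes tested lay between −0.01 and 0.01. Mono-culture replicate 4 was the highest mono-culture library in 9 of the 10 genes, all but Psmb9. Without it, the number of lower genes was 7 with clone K, 6 with M, 5 with E, 5 with T and 4 with N. It was 3 with clone V and 3 with KPC1. Without clone H replicate 4 the number was 5 with clone H.

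**Figure D1:**
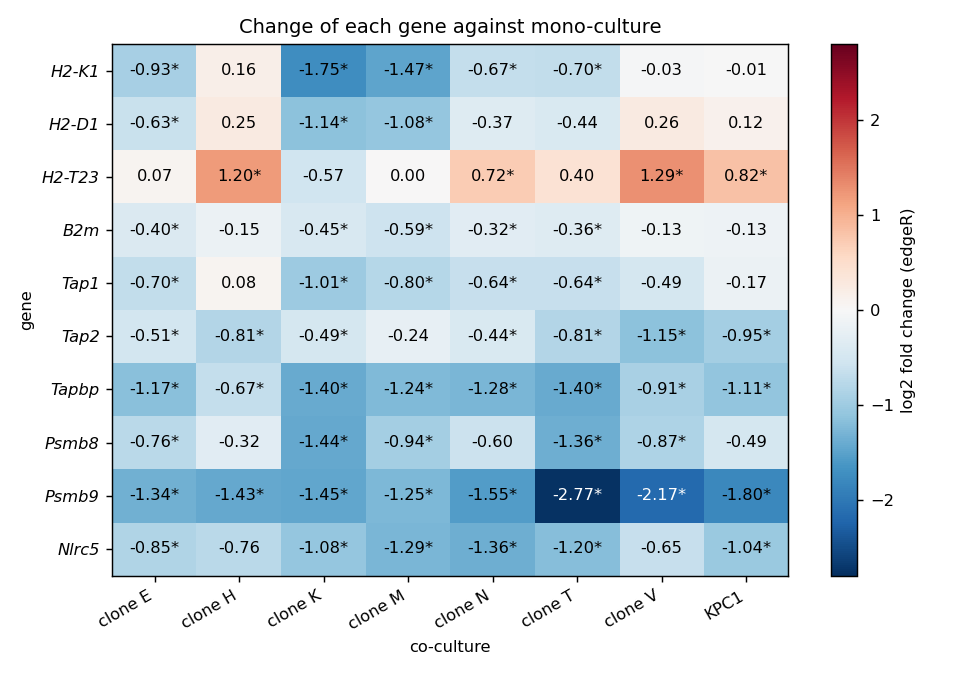
The log2 fold change of each gene (rows) in each co-culture (columns) against mono-culture is written in each cell and shown by colour, and an asterisk marks an adjusted p under 0.05 in edgeR. Tapbp and Psmb9 are negative with an asterisk in all 8 columns, and H2-T23 is the row with positive asterisks.

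In a fit with only the 2 libraries of each co-culture that were lowest in epithelial markers, an alternative chosen after seeing the data, all 56 calls kept their sign. The median log2 fold change of the 10 genes was then −1.13 with clone M, −1.05 with K, −0.75 with E, −0.74 with N, −0.71 with V, −0.69 with T, −0.61 with H and −0.38 with KPC1. The number of lower genes was 7 with clones M and K, 6 with H, 5 with T, V and N, and 4 with E and KPC1, in fits that had fewer libraries. The kept libraries are part of those that gave the calls, and the mono-culture libraries were the same. With clones H, K, M and V the kept libraries were replicates 1 and 2, so marker level and replicate number cannot be told apart there. Where all libraries of a co-culture lay on 1 side of mono-culture, the sign was all but fixed. Kept signs are therefore no separate support for the calls, and the part of tumour-cell RNA was not tested.

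The classical heavy chains H2-K1 and H2-D1 were lowest with clones K and M and were near the mono-culture level with clones H and V and with KPC1. H2-K1 (ENSMUSG00000061232, chr17:33996017-34000347, minus strand, GRCm38) was measured at 106, 93.7, 78.4 and 152 CPM in the 4 mono-culture libraries. With clone K it was at 47.9, 28.9, 27.2 and 24.1 CPM, and with clone M at 34.5, 42.4, 43.0 and 35.1 CPM. Every library of these co-cultures lay below every mono-culture library. H2-K1 fell by 1.75 on the log2 scale with clone K (SE 0.21, edgeR adjusted p = 4.68e-07) and by 1.47 with clone M (SE 0.21, adjusted p = 3.98e-06), that is 3.36-fold and 2.78-fold. With clone E it was at 46.6 to 69.4 CPM and fell by 0.93 (SE 0.20, adjusted p = 0.000767). With clones N and T it fell by 0.67 and 0.70 (adjusted p = 0.00908 and 0.00522), and the libraries of clone T overlapped those of mono-culture. Without mono-culture replicate 4, the calls for H2-K1 with clones N and T were lost (adjusted p = 0.0735 and 0.0582).

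With clone H, H2-K1 was at 88.4, 133, 125 and 135 CPM, with clone V at 131, 93.4, 108 and 91.5 CPM, and with KPC1 at 109, 109, 119.8 and 90.1 CPM. These libraries overlapped those of mono-culture, and the log2 differences of 0.16, −0.03 and −0.01 (SE 0.20 each) did not pass the threshold. H2-D1 (ENSMUSG00000073411, chr17:35262730-35267499, plus strand) was at 145 ± 35.6 CPM in mono-culture (SD, n = 4). It was at 65.7 ± 13.5 CPM with clone K, 68.9 ± 8.85 with clone M and 94.2 ± 10.8 with clone E, and the log2 changes were −1.14, −1.08 and −0.63 (adjusted p = 4.95e-05, 8.61e-05 and 0.0106). The libraries of these 3 groups did not overlap those of mono-culture. With clones N, T, H, V and KPC1 the values for H2-D1 were 112, 107, 173, 174 and 158 CPM on average, with log2 differences between −0.44 and 0.26 that did not pass. The call with clone E was lost without mono-culture replicate 4 (adjusted p = 0.0638). H2-K1 and H2-D1 are near-identical paralogs, so reads may have been split between them, and their separate values are uncertain to that degree.

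The non-classical heavy chain H2-T23 was the only member with a rise that passed the test. H2-T23 (ENSMUSG00000067212, chr17:36029773-36032855, minus strand) was at 24.6, 17.3, 20.5 and 26.2 CPM in mono-culture. With clone V it was at 49.8, 47.3, 58.3 and 61.1 CPM, and with clone H at 33.2, 51.4, 48.9 and 69.8 CPM. All of these libraries were above the highest mono-culture library. The log2 change was 1.29 with clone V (SE 0.22, adjusted p = 9.78e-06) and 1.20 with clone H (SE 0.22, adjusted p = 3.37e-05), or 2.44-fold and 2.29-fold. With KPC1 it was at 39.1 ± 8.44 CPM and rose by 0.82 (adjusted p = 0.00187), and with clone N at 36.6 ± 5.95 CPM, rising by 0.72 (adjusted p = 0.00918), again without overlap. With clone K, where H2-K1 was lowest, H2-T23 was at 17.4, 9.23, 14.8 and 18.3 CPM, and its log2 difference of −0.57 (SE 0.22, adjusted p = 0.0722) did not pass. Its log2 differences with clones E, M and T were 0.07, 0.00 and 0.40, none of which passed.

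The ratio of the classical to the non-classical chain within a library does not depend on scaling. The log2 ratio of H2-K1 to H2-T23 in CPM, with no correction for length, was 1.93 to 2.54 in the mono-culture libraries, a mean ratio of 4.76. It was lower in each of the 32 co-culture libraries, where the mean ratio of a group lay between 1.78 with clone M and 2.77 with KPC1 and the highest single library reached 1.90 on the log2 scale. No test was made of this ratio.

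**Figure D2:**
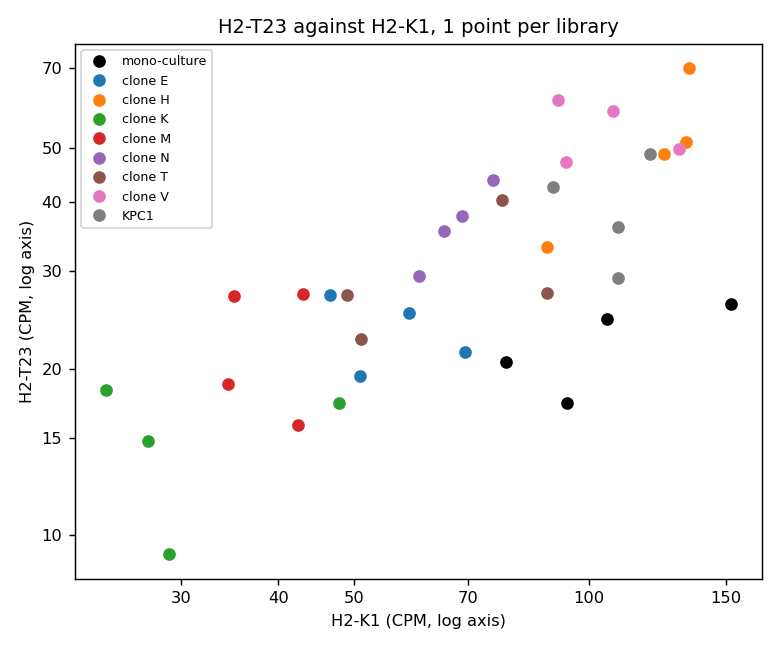
Each point is 1 library, with H2-K1 on the horizontal and H2-T23 on the vertical axis (CPM, log axes) and a colour per group. The mono-culture libraries lie at the lower right, while co-cultures with clones H and V lie above them at a like H2-K1 level and those with clones K and M lie to the left.

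The light chain B2m (ENSMUSG00000060802, chr2:122147686-122153083, plus strand) was the most abundant member per length, at 1276 ± 178 RPKM in mono-culture. It was at 1142, 1046, 857 and 1158 CPM in mono-culture and at 669, 718, 691 and 722 CPM with clone M. The latter lay wholly below mono-culture, and B2m fell by 0.59 (SE 0.13, adjusted p = 0.000981), the largest change of B2m in the 8 co-cultures. It also fell with clones K, E, T and N, by 0.45, 0.40, 0.36 and 0.32 (adjusted p = 0.0124, 0.0152, 0.0202 and 0.0429), with overlap for K, T and N. Without mono-culture replicate 4 the calls with N and T were lost (adjusted p = 0.103 and 0.0715), as was the call with E without clone E replicate 3 (adjusted p = 0.0507). Any of 14 single libraries removed the call with clone N and any of 4 that with clone T (mono-culture replicates 1 and 4, clone T replicates 1 and 3). With clones H and V and KPC1 the log2 differences of −0.15, −0.13 and −0.13 did not pass.

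Among the genes of peptide transport and loading, tapasin fell in every co-culture. Tapbp (ENSMUSG00000024308, chr17:33915899-33929292, plus strand) was at 499, 460.1, 423 and 598 CPM in mono-culture, and its highest value in the 32 co-culture libraries was 378 CPM, in a library with clone H. With clone T it was at 161, 189.7, 157 and 240.01 CPM and with clone K at 170.5, 165, 191 and 223 CPM. The groups did not overlap mono-culture in any of the 8 comparisons. Tapbp fell by 1.40 with clone T (SE 0.19, adjusted p = 6.36e-07), by 1.40 with clone K (adjusted p = 3.31e-06), by 1.28 with clone N, 1.24 with clone M, 1.17 with clone E, 1.11 with KPC1, 0.91 with clone V and 0.67 with clone H (adjusted p = 0.0037). Tapbp shares 149 exonic bases with Zbtb22 on the same strand in the GENCODE annotation.

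The transporter subunits Tap1 and Tap2 were lowest in different co-cultures. Tap1 (ENSMUSG00000037321, chr17:34187553-34197225, plus strand) was at 41.3, 37.7, 35.1 and 59.5 CPM in mono-culture and at 21.3, 20.02, 21.5 and 23.6 CPM with clone K. It fell by 1.01 with clone K (SE 0.23, adjusted p = 0.00174), by 0.80 with clone M, 0.70 with clone E and 0.64 with clones N and T, all without overlap. With clone H it was at 26.2, 45.3, 58.2 and 53.6 CPM, and the log2 differences with clone H, clone V and KPC1 were 0.08, −0.49 and −0.17, none of which passed. Without mono-culture replicate 4 the calls of Tap1 with clones E, M, N and T were lost, at log2 differences of −0.51, −0.61, −0.46 and −0.44. The calls with E, N and T were also lost without clone E replicate 4, without clone N replicate 1 or 2 and without clone T replicate 1.

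Tap2 (ENSMUSG00000024339, chr17:34203527-34216321, plus strand) was at 42.5, 38.9, 37.2 and 49.2 CPM in mono-culture and was lowest with clone V, at 12.8, 23.6, 19.8 and 19.7 CPM. It fell by 1.15 with clone V (SE 0.14, adjusted p = 4.34e-08), by 0.95 with KPC1, by 0.81 with clones H and T, and by 0.51, 0.49 and 0.44 with clones E, K and N. These 7 groups did not overlap mono-culture. The call with clone K was lost without mono-culture replicate 4 (log2 difference −0.40, adjusted p = 0.0556). With clone M, Tap2 was at 32.2 to 38.9 CPM, and its log2 difference of −0.24 (SE 0.14, adjusted p = 0.226) did not pass. In the direct comparison of clone V with clone M, the members differed in sign. Tap2 was lower with clone V by 0.91 on the log2 scale (adjusted p = 2.04e-06), whereas H2-K1, H2-D1 and H2-T23 were higher with clone V by 1.45, 1.33 and 1.28 (adjusted p = 8.12e-07, 6.92e-07 and 1.06e-05).

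**Figure D3:**
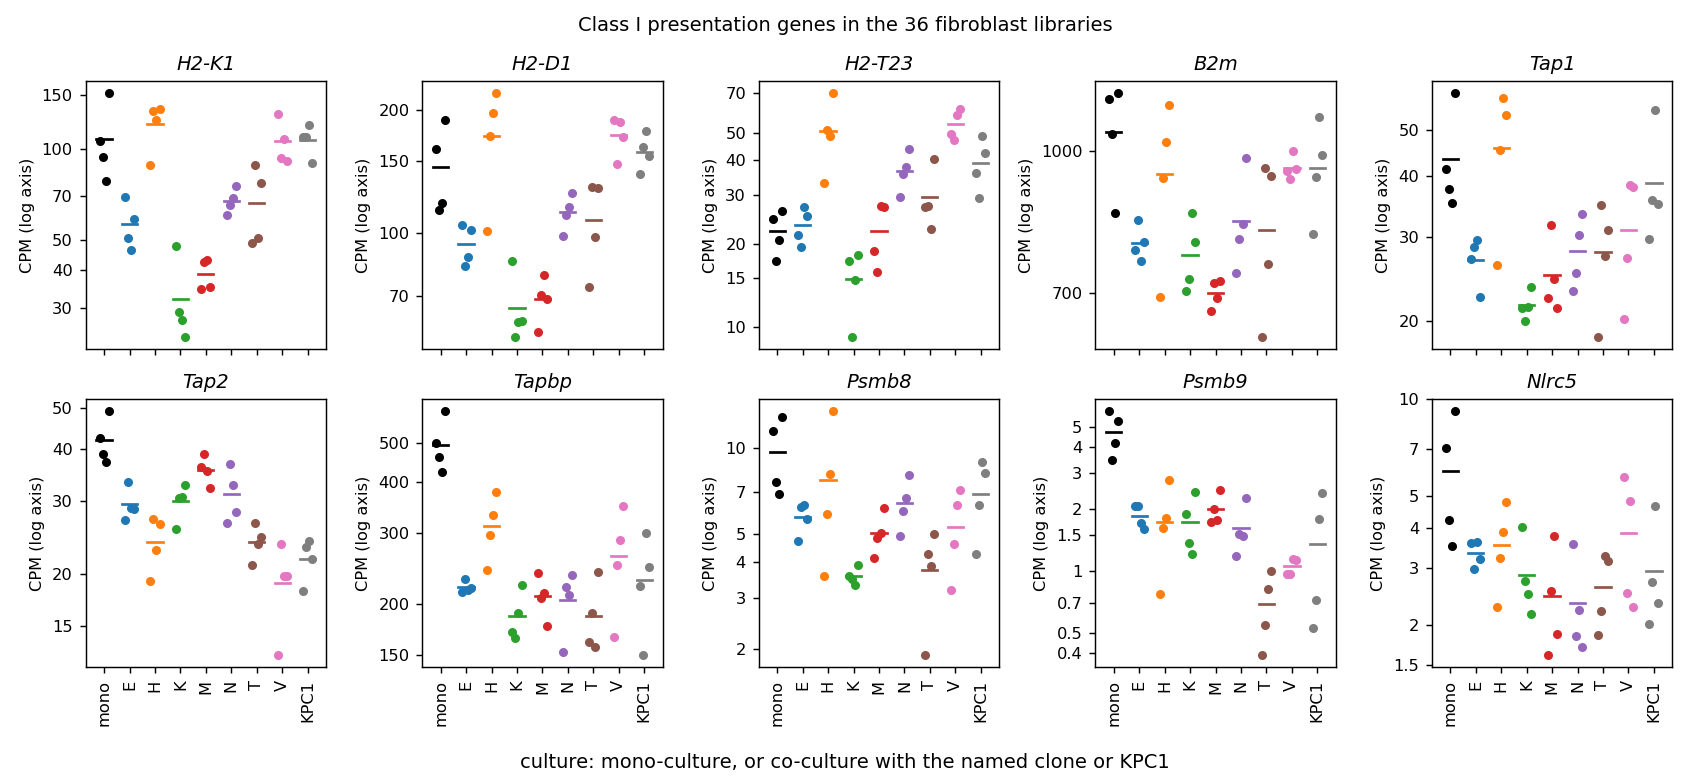
Each panel shows 1 gene, with a point for each of the 4 libraries of a group and a line at the group mean (CPM, log axis). Tapbp and Psmb9 lie below mono-culture in every co-culture, while H2-K1 and H2-D1 with clones H, V and KPC1 overlap it.

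The immunoproteasome subunit Psmb9 had the largest single change of the 10 genes, with clone T. Psmb9 (ENSMUSG00000096727, chr17:34181987-34187764, minus strand) was at 5.94, 3.47, 4.18 and 5.35 CPM in mono-culture, and at 0.393, 0.549, 0.819 and 0.996 CPM with clone T. With clone V it was at 0.967, 0.963, 1.14 and 1.14 CPM. Every co-culture library was below every mono-culture library. Psmb9 fell by 2.77 with clone T (SE 0.37, adjusted p = 4e-07), that is 6.81-fold, by 2.17 with clone V (adjusted p = 4.81e-06), by 1.80 with KPC1, and by 1.25 to 1.55 with the other clones. Counts were low, from 7 to 117 reads in a library, and the lowest was in clone T replicate 1. Psmb9 and Tap1 share 212 exonic bases on opposite strands. Because the sources used here do not state whether counting used strand, reads of that overlap may have been given to either gene or left out. Opposite-strand overlaps with other counted genes included 498 exonic bases of Psmb8 with Gm20496 and 533 of Tap2 with Gm15821.

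Psmb8 (ENSMUSG00000024338, chr17:34197721-34201454, plus strand) was at 11.4, 7.59, 6.92 and 12.8 CPM in mono-culture, at 3.58, 3.51, 3.33 and 3.91 CPM with clone K and at 1.91, 4.29, 3.88 and 5.04 CPM with clone T. Neither group overlapped mono-culture, and Psmb8 fell by 1.44 with clone K (SE 0.30, adjusted p = 0.00087) and by 1.36 with clone T (adjusted p = 0.000402). It also fell by 0.94 with clone M, 0.87 with clone V and 0.76 with clone E (adjusted p = 0.0209, 0.0122 and 0.0475). Without mono-culture replicate 4 these 3 calls were lost (adjusted p = 0.0819, 0.0605 and 0.161). The call with clone M was also lost without mono-culture replicate 1 or clone M replicate 1 or 3, that with clone V without clone V replicate 1, and that with clone E without any of 20 single libraries. The log2 differences with clones H and N and KPC1 were −0.32, −0.60 and −0.49, none of which passed.

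The log2 ratio of each inducible subunit to the constitutive subunit it replaces compares the subunits within a library. The ratio of Psmb9 to Psmb6 was −4.83 ± 0.39 in mono-culture and lay wholly below it in all 8 co-cultures, from 0.94 lower with clone M to 2.40 lower with clone T. The ratio of Psmb10 to Psmb7 was wholly below mono-culture in 7 co-cultures (all but clone H), and that of Psmb8 to Psmb5 in 3 (clones K, T and V). These 18 of 24 comparisons each had an exact two-sided permutation p of 0.0286, the smallest that 4 against 4 libraries allow, and an adjusted p of 0.0381 over the 24. The remaining 6 were also lower on average, by 0.57 to 0.74 on the log2 scale, and did not pass. Of the constitutive subunits themselves, Psmb5 rose with clone V by 0.31 on the log2 scale, Psmb6 fell by 0.32 to 0.36 with clones E, H and T, and Psmb7 rose by 0.21 to 0.34 with clones H and V and with KPC1.

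**Figure D4:**
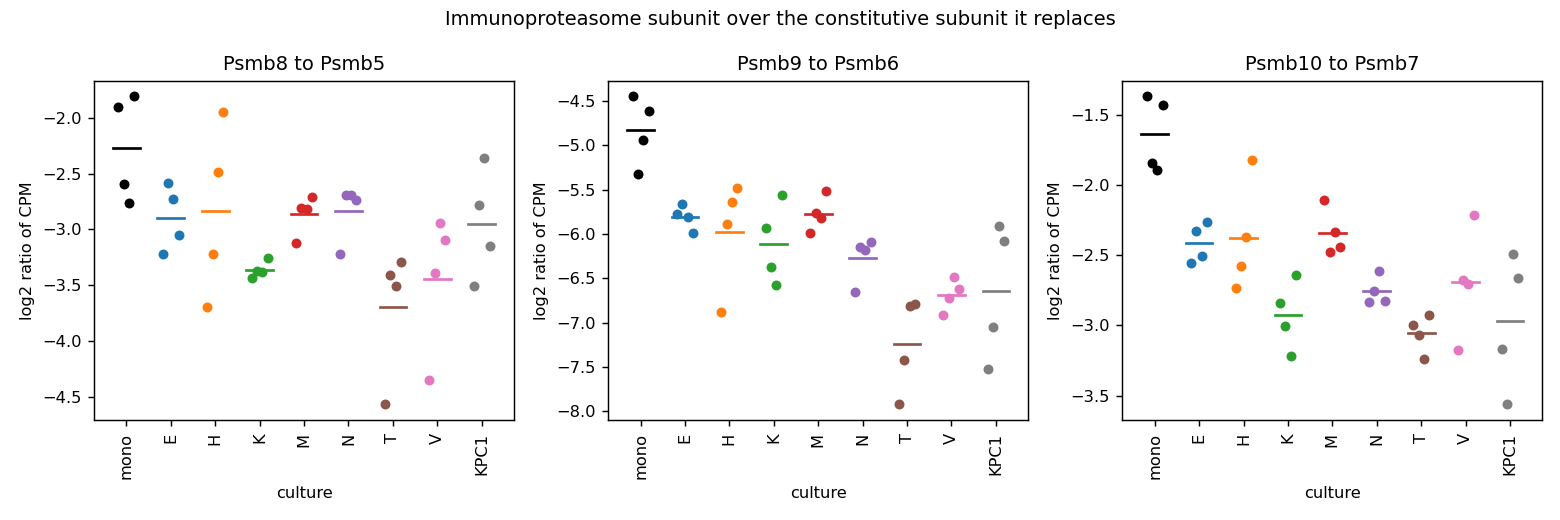
The log2 ratio of CPM of an inducible to a constitutive proteasome subunit is shown for each library (points) with the group mean (line), 1 panel per pair. The Psmb9 to Psmb6 ratio is lower than mono-culture in every library of the 8 co-cultures.

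The transactivator Nlrc5 (ENSMUSG00000074151, chr8:94434356-94527272, plus strand) was the least abundant member per length, at 0.905 ± 0.408 RPKM in mono-culture. It was at 7.05, 4.24, 3.50 and 9.19 CPM there, a wide spread, and at 3.56, 1.84, 2.22 and 1.70 CPM with clone N. It fell with clones N, M, T, K and E and with KPC1, by 1.36, 1.29, 1.20, 1.08, 0.85 and 1.04 (adjusted p = 0.00176, 0.00543, 0.00358, 0.0203, 0.0479 and 0.00812). Only the libraries of clone T did not overlap mono-culture. With clones H and V its log2 differences were −0.76 and −0.65 (adjusted p = 0.0504 and 0.0904). The calls with clones E and K and with KPC1 were lost without mono-culture replicate 4 (adjusted p = 0.236, 0.125 and 0.0654). The call with clone E was lost without any of 17 single libraries, and that with clone K also without mono-culture replicate 1 or clone K replicate 2, 3 or 4.

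Differences among the 7 clonal co-cultures were tested with an F-test, which 9 of the 10 members passed, where 67.5% of all genes did. The exception was Nlrc5 (edgeR adjusted p = 0.311). The call for B2m was lost without clone M replicate 1 or 3 (adjusted p = 0.0588 and 0.0507), and that for Psmb8 without clone H replicate 4 (adjusted p = 0.0561). B2m also did not pass in edgeR with library totals alone (adjusted p = 0.111) or in limma on log2(RPKM + 1) and log2(RPKM + 0.1) (adjusted p = 0.153 and 0.150). Psmb8 did not pass in limma on log2(RPKM + 1) (adjusted p = 0.0596). In the fit with the 2 libraries of each co-culture lowest in epithelial markers, B2m, Psmb8, Tap1, Tapbp and Psmb9 did not pass. Their edgeR adjusted p there was 0.244, 0.300, 0.259, 0.155 and 0.143, in a fit with fewer libraries. In the main edgeR fit the adjusted p was smallest for H2-K1 (8.71e-09), followed by H2-T23 (5.09e-08) and H2-D1 (7.27e-08). Of the 28 pairs of co-cultures, 20 differed in H2-K1, 18 in H2-D1, 15 in H2-T23, 11 in Tap2, 7 in Tap1, 6 in Tapbp and in Psmb9, 5 in B2m, 4 in Psmb8 and 0 in Nlrc5. Over all 36 pairs of groups, which include those with mono-culture, 30.7% of gene and pair combinations were called. The share over the 28 pairs alone was not computed. The counts of Tap1, Tapbp, Psmb9, B2m, Psmb8 and Nlrc5 lie below the share over the 36 pairs. In order of rising mean level, H2-K1 ran from clone K (32.03 CPM) through M, E, T and N to V, KPC1, mono-culture and clone H (120.3 CPM), and the step from clone N to clone V passed the test (log2 difference 0.65, adjusted p = 0.0107) while the other 7 steps between neighbours did not. For Tapbp and Psmb9, the step up to mono-culture passed (from clone H and from clone M respectively) and the other 7 did not. In the other members no step between neighbours passed in edgeR, and in DESeq2 the step of H2-T23 from clone K to mono-culture passed (adjusted p = 0.0466).

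KPC1 co-cultures differed from the mean of the 7 clonal co-cultures in 4 members. H2-K1, H2-D1 and Tap1 were higher with KPC1, by 0.76, 0.57 and 0.43 on the log2 scale (adjusted p = 0.000125, 0.00118 and 0.0344), where 22.3% of all genes were higher. Tap2 was lower by 0.31 (adjusted p = 0.0206), where 18.8% of all genes were lower. The share of members called was near the background. The Tap2 call was lost without KPC1 replicate 1 (log2 difference −0.24, adjusted p = 0.132). The Tap1 call was lost without KPC1 replicate 2 (adjusted p = 0.0515) or 3 (log2 difference 0.22, adjusted p = 0.365), with library totals alone, without a filter and in both limma fits (adjusted p = 0.0520 to 0.0740). In the libraries lowest in epithelial markers the H2-K1 difference was 0.62 (adjusted p = 0.0626). Without clone H replicate 4 the number of higher members was 5.

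Of 22 other genes of the pathway and of its control, all tested, 8 were lower and 8 higher with KPC1, 8 and 5 with clone T, 7 and 2 with K, 6 and 7 with V, 6 and 6 with H, 6 and 4 with M, 5 and 7 with N, and 5 and 4 with clone E. Of all genes, 28.5% were lower and 30.5% higher with KPC1, 24.7% and 25% with T, and 8.69% and 10.4% with K. The shares were 28.9% and 29.4% with V, 26.4% and 27.8% with H, and 10.8% and 12.2% with M. With clone N they were 19.2% and 19.7%, and with clone E 15.5% and 16.5%. The counts with clones H and V lie near these shares. The median log2 fold change of the 22 genes lay between −0.05 and 0.03. Tapbpl, a tapasin-related peptide editor, fell in all 8, by 0.86 with clone M to 1.85 with KPC1. Psmb10, the third inducible proteasome subunit, fell in all 8, by 0.49 with clone H to 1.37 with clone K. Jak2, a kinase of the interferon gamma receptor, rose in all 8, by 0.51 with clone M to 1.33 with KPC1. Irf1, an activator of class I genes, fell with clones K and T, by 0.45 and 0.54, and did not pass in the other 6.

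Of the other 26 class I heavy chain genes in the table, 5 had enough reads to be tested. H2-Q4 fell with clones M, T, K, N and E, by 1.10 to 1.66 on the log2 scale, the co-cultures in which H2-K1 fell too. H2-M5 had at most 27 reads in a library and fell with clones E and T, by 1.24 and 1.17. Among these 5 genes, none rose. For class II, 3 of 7 genes were tested, and H2-Aa, H2-Ab1, H2-Eb1 and the class II transactivator Ciita had at most 7 reads in any library. Of the tested genes, H2-DMb1, a chain of the class II peptide exchanger, fell in 7 co-cultures, by 0.44 with clone M to 0.76 with clone T, and did not pass with clone N. H2-DMa, the other chain, fell with clones H and V and with KPC1, by 0.60, 0.99 and 0.99. The invariant chain Cd74 fell with clones K and M, by 1.04 and 1.18. None of the 13 interferon genes examined (Ifnb1, Ifng and 11 Ifna genes) passed the filter, and none had more than 3 reads in a library.

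Of 14 interferon-stimulated genes, 14 were lower with clone M, 14 with T, 13 with K, 13 with N, 12 with E, 8 with KPC1, 5 with V and 3 with clone H, and 0 were higher in any of them. The counts with clones H and V lie near the shares of all genes that were lower there, 26.4% and 28.9%. Their median log2 fold change was −1.84, −1.83, −1.81, −1.67, −1.47, −0.89, −0.66 and −0.37 in the same order. Rsad2, which encodes viperin, had the lowest value with clones M, K, N and E, with a fall of 3.20 with clone K, and Gbp2, a guanylate-binding GTPase, the lowest with clones H, T and V and with KPC1, with a fall of 2.71 with clone T.

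**Figure D5:**
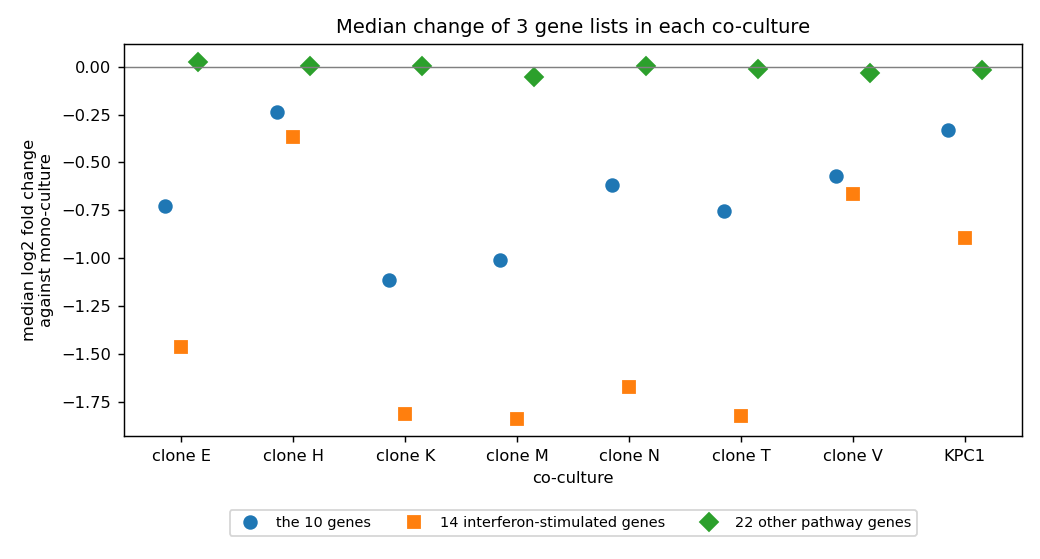
The vertical axis is the median log2 fold change against mono-culture of the 10 class I genes, of 14 interferon-stimulated genes and of 22 other pathway genes in each co-culture. The first 2 lists are nearest to 0 with clone H, and the third lies between −0.05 and 0.03 throughout.

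Over the 36 libraries, the genes whose log2 CPM followed the mean standardised profile of the 10 members most closely were Oasl2 (Pearson r = 0.925), Isg15 (0.923), Bst2 (0.920), Parp14 (0.919) and Ifit3 (0.917), out of 11695 genes with a mean of at least 2 CPM. These correlations are descriptions, since the libraries share groups and the mono-culture. For single members, H2-K1 and H2-D1 were closest to each other (r = 0.960), and the closest gene was Vps16 for H2-T23 (0.888), Bst2 for B2m (0.907), Ddx58 for Tap1 (0.920), Pltp for Tap2 (0.922), Psmb10 for Tapbp (0.916), Igtp for Psmb8 (0.897), Gbp2 for Psmb9 (0.872) and Fmr1 for Nlrc5 (0.759). Among the members, H2-K1 and H2-T23 had r = 0.719 over all libraries and 0.342 after the group means were removed, and H2-K1 and Tap2 had −0.323 and 0.0710.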

How the data were processed

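RNA was measured by poly(A)-selected, strand-specific sequencing (200 ng of total RNA, 14 cycles of amplification, 76 bp paired ends). The authors deposited whole-number counts per gene for 39017 genes, not scaled between libraries, and RPKM values for 37746 of them. The submitters' processing notes name STAR, featureCounts, edgeR and the mm10 genome, while the annotation and whether counting used strand are not given in the sources used here. Groups were taken from the sample labels. Counts were filtered (filterByExpr, 14439 genes), scaled by TMM (factors 0.957 to 1.07) and fitted with 1 coefficient per group over the 36 libraries (edgeR 4.0.16 in R 4.3.3, robust glmQLFit and glmQLFTest). The Benjamini-Hochberg adjustment ran over all genes tested, with a threshold of 0.05. Proteasome ratios used log2 CPM with a prior count of 1. RPKM served for levels between genes and, as log2(RPKM + 1) and log2(RPKM + 0.1), for limma 3.58.1. DESeq2 1.42.0, RLE scaling, library totals alone, no filter, a replicate block and leaving out each library were the other alternatives.

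The members and gene lists were chosen with earlier results of these data known. All 10 members are named, and of the pathway and interferon lists the called genes with the highest and lowest log2 fold change per comparison, genes set directly against a member, and the genes most like each member in profile, except for an item of the lists that is not reported here. Marker genes were named after their values were seen. On simulated counts for 14174 genes in the comparison of clone E with mono-culture, edgeR recovered 91% of 2-fold and 51% of 1.5-fold changes, with 3.40% of calls made on unchanged genes. DESeq2 recovered 94% and 62%, with 11.9% of its calls on unchanged genes. In the simulation 100 genes were changed at each fold, in clone E alone, and none averaged counts as low as those of Psmb9. These rates may not hold for the real libraries, where many more genes differed. Gene positions are from GENCODE M21 (GRCm38, the assembly of mm10) and promoters from RefSeq (GRCm38.p6). Replicates of a group differed by more than sampling noise (smallest chi-square per degree of freedom 5.53).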

Additional observations from a re-analysis of the deposited data

Results flagged for a closer look

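In 9 members the effect of co-culture differed among the 7 clones by an F-test of the difference itself (edgeR, Benjamini-Hochberg over all genes), which 67.5% of all genes tested also passed. The adjusted p was 8.71e-09 for H2-K1, 5.09e-08 for H2-T23, 7.27e-08 for H2-D1, 2.28e-05 for Tap2, 0.00263 for Tap1, 0.00504 for Tapbp, 0.00713 for Psmb9, 0.0159 for Psmb8 and 0.0239 for B2m. The calls for B2m and Psmb8 were lost in some other settings, as given in the results. Those for B2m, Psmb8, Tap1, Tapbp and Psmb9 were lost with the 2 libraries per co-culture lowest in epithelial markers, where fewer libraries were fitted. H2-D1 in clone K replicate 1, at 85.6 CPM, stood apart from the other 3 libraries of its group, its gap being 0.832 of the range of the group. It was 1 of 90 sets of 4 libraries examined, where chance alone gives about 4.5.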

How the results depend on the processing

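Of 100 tests of a member in a comparison, 69 passed in edgeR. All 69 also passed in DESeq2 and with the replicate block, in which the replicate number was a term. These settings added 3 and 10 calls. Calls were lost in 4 tests without a filter and 2 with library totals alone. In limma on log2(RPKM + 1) and log2(RPKM + 0.1), 3 and 4 were lost. Psmb8 and Nlrc5 with clone E did not pass without a filter (edgeR adjusted p = 0.0767 and 0.0667). In limma on log2(RPKM + 0.1) they did not pass either (adjusted p = 0.0616 and 0.0688). Nor did B2m with clone N without a filter (edgeR adjusted p = 0.0617). Same-numbered libraries correlated at 0.107 on average (range −0.582 to 0.693), and differently numbered ones at −0.0353. Among co-cultures alone the mean for the same number was 0.143. Of the 36 libraries, 24 correlated best with their own number. The main fit did not take the numbers as pairs, so a part of replicate number in its results was not tested there. With the replicate block 1 member was higher with clone T and 6 were higher with KPC1 than with the mean of the clones, and no other count moved by over 1.5 times. Leaving out 1 library lost 21 of the 69 calls in some case, 16 of them without mono-culture replicate 4. The number of lower members then ranged from 5 to 9 with clone E, 7 to 9 with K and 6 to 8 with M. It ranged from 3 to 5 with clone H, 4 to 7 with N and 5 to 9 with T. With clone V it ranged from 3 to 6 and with KPC1 from 3 to 4. The number of higher members ranged from 1 to 2 with clone H. In KPC1 against the clones, the ranges were 0 to 1 lower and 2 to 5 higher. With the 2 libraries per co-culture lowest in epithelial markers, 4 were lower with clone E, 6 with clone H and 5 with clone T, 0 were higher with clone N, 0 were lower with KPC1 against the clones, and 4 differed among the clones. These fits had fewer libraries.

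Signs changed in 10 results, of which 0 had been called. H2-T23 with clone M, at 0.0010 on the log2 scale, was −0.00023 in DESeq2, −0.0018 with RLE scaling, −0.019 with library totals alone, −0.031 and −0.037 in limma on log2(RPKM + 1) and log2(RPKM + 0.1), −0.015 with the replicate block, −0.36 in the libraries lowest in epithelial markers, and −0.11 to 0.14 with 1 library left out. Tap1 with clone H was −0.0090 with library totals alone, −0.035 and −0.042 in limma, −0.28 in the libraries lowest in epithelial markers and −0.057 to 0.27 with 1 library left out. H2-K1 with KPC1 was 0.0068 without a filter, 0.0031 with the replicate block and −0.12 to 0.21 with 1 library left out, and Tap1 with KPC1 was −0.39 to 0.027. H2-K1 with clone V was 0.059 in the libraries lowest in epithelial markers and −0.14 to 0.20 with 1 library left out. H2-T23 with clone E was −0.013 and −0.027 to 0.16 in these settings, and H2-D1 with clone H was −0.086 in the former. In KPC1 against the clones, Psmb9 was 0.27 and −0.52 to 0.18, Tapbp was −0.052 and −0.11 to 0.21 in the same settings and −0.0079 and −0.0081 in limma, and Nlrc5 was −0.33 to 0.13. The cause was not tested. Depth limits Psmb9 and Nlrc5, with as few as 7 and 25 reads in a library.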
